A study of Mus musculus with 8 samples.

Results

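miR-31 is a microRNA made as 2 mature arms, miR-31-5p and miR-31-3p, which were followed here through 8 mouse small RNA libraries. The members are the table entries named mmu-miR-31-5p and mmu-miR-31-3p, 2 of 1418 entries, or 2 of 1281 mature miRNAs. They were selected on the RPM difference between calvaria and MC3T3 cells, which was already known, so that difference is described below without a test. The course over the days of culture was tested.

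Of the 8 libraries, 3 came from calvaria, the parietal and frontal bones of the skull vault, of female C57/B6 Prrx1-Cre+ mice aged 2 to 3 days. The bones had been briefly digested with collagenase and trypsin. Prrx1-Cre places the recombinase in early limb and skull mesenchyme, and the labels give no floxed allele with it. The other 5 libraries came from MC3T3 E1 sc4, a cloned mouse pre-osteoblast line at passage 10 to 15, on days 0, 6, 10, 17 and 24. The day 0 cells are labelled undifferentiated, and the later ones received 50 µg/ml ascorbic acid and 4 mM β-glycerol phosphate, which drive matrix formation and mineralization. Column names of the later days also carry "veh", whose meaning is not given, and that of day 0 does not. Whatever it marks cannot be told apart from the step between day 0 and later days. Each MC3T3 library pooled equal RNA of 3 cultures, so a day has 1 library and the line is 1 clone. Nothing in the labels tells whether each calvaria library is a different animal, and the p-values therefore reflect only how far these samples spread, which may be technical. Totals were 1183011 to 2023036 counts in calvaria and 2742368 to 4031962 in MC3T3.

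A microRNA guides the Argonaute protein to messenger RNAs through its seed, bases 2 to 8 of the mature strand, and lowers their translation and stability. In bone, miR-31-5p has been reported to restrain osteoblast differentiation. Neither messenger RNA nor protein was measured in these libraries.

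The arms are shown because they are what was counted. Their RefSeq sequences (GRCm38.p6, 5′ to 3′) have the seed in capitals, and miR-31-5p lies at chr4:88910614-88910635 and miR-31-3p at chr4:88910577-88910599, both on the minus strand.
miR-31-5p: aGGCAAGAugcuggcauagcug
miR-31-3p: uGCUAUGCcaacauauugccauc
The arms are 22 and 23 bases long and have different seeds. Among the 1679 mature names in the RefSeq table, no other had either seed. The longest run of bases that either arm shared with another sequence of that table was 9. The hairpin is shown with both arms in capitals, to place them on either side of the 14-base loop.
Mir31 hairpin: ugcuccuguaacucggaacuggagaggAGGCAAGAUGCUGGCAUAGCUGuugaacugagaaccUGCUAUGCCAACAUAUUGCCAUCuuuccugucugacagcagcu
The hairpin (chr4:88910557-88910662, minus strand, 106 bases) lies within an exon of the long noncoding RNA AL805899.1 in GENCODE M21, which has 1 annotated transcript there. The nearest protein-coding genes are Ifne, 30356 bp away, and Mtap, 226460 bp away. The nearest other miRNA hairpin, Mir491, is 788432 bp away, so no neighbouring hairpin lies close to Mir31.

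miR-31-5p, the abundant arm, was scarce in calvaria and among the more abundant miRNAs in MC3T3 cells. It had 28.7, 20.8 and 14.1 RPM (counts scaled to the library total) in the 3 calvaria libraries, against 1077, 3827, 3098, 3538 and 2897 RPM in MC3T3 cells on days 0, 6, 10, 17 and 24. The groups did not overlap: the lowest MC3T3 library, day 0, was 37.5-fold above the highest calvaria library. By rank among mature miRNAs it stood at 287, 312 and 340 in calvaria and between 34 and 49 in MC3T3.

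**Figure D1:**
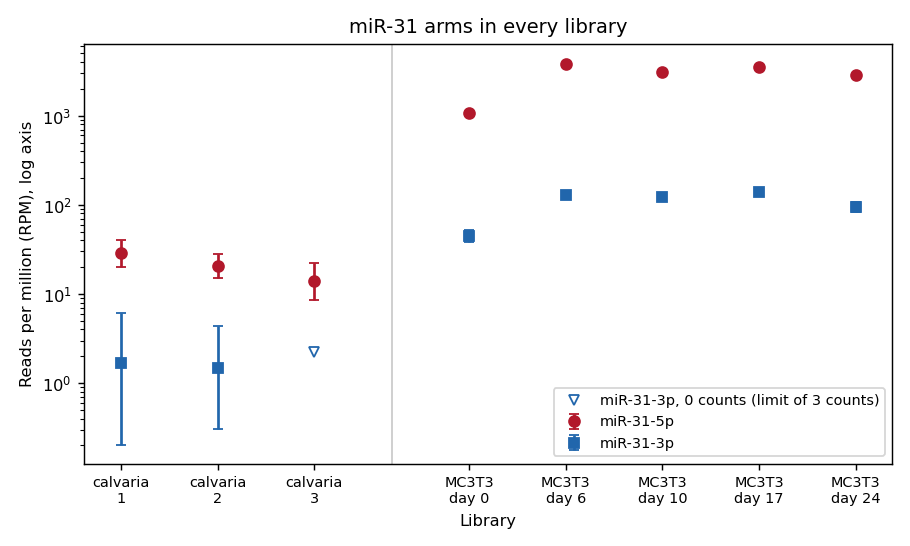
RPM on a log axis for miR-31-5p and miR-31-3p in each library, calvaria left of MC3T3 days 0 to 24, with bars for exact 95% Poisson intervals of the count. miR-31-5p lay at 14.1 to 28.7 RPM in calvaria and 1077 to 3827 RPM in MC3T3, and the groups did not overlap for either arm.

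The calvaria values rested on 34, 42 and 19 counts, against 4344 to 13941 counts in MC3T3. Exact 95% Poisson intervals were 19.9 to 40.2, 15.0 to 28.1 and 8.52 to 22.1 RPM in calvaria, so neighbouring calvaria libraries overlapped in their intervals. Reads carried no molecular identifiers, and these intervals cover counting error only.

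miR-31-3p, the minor arm, had 1.69, 1.48 and 0 RPM in calvaria, against 44.6, 128.7, 122.7, 138.1 and 94.4 RPM in MC3T3 on the same 5 days. The calvaria values were 2, 3 and 0 counts, and a count of 0 in the third library allows up to 2.23 RPM. miR-31-3p was thus at the limit of detection in calvaria and well above it on every MC3T3 day, where it had 180 to 544 counts.

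Over the group means, miR-31-5p was at 21.2 ± 7.31 RPM in calvaria (SD, n = 3) and 2888 ± 1076 RPM in MC3T3 (SD, n = 5), where the spread includes the days. miR-31-3p was at 1.06 ± 0.921 RPM in calvaria (SD, n = 3) and 105.7 ± 37.8 RPM in MC3T3 (SD, n = 5). Pooled counts gave miR-31-5p 135-fold lower in calvaria (exact 95% interval 111 to 167) and miR-31-3p 94.9-fold lower (40.6 to 293). Both arms were lower in calvaria to a like degree, and the interval of the minor arm contained the value of the major one.

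Set against single days, the pooled calvaria level was least low relative to day 0. For miR-31-5p they were 183-fold lower than day 6 (150 to 227), the widest gap, and 51.6-fold lower than day 0 (42.1 to 63.9). For miR-31-3p they were 126-fold lower than day 17 (53.5 to 388) and 40.6-fold lower than day 0 (17.1 to 127). The size of the difference therefore depended on the day chosen, and its direction did not.

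With TMM scaling, which sets libraries level on the bulk of their entries, the edgeR fit gave calvaria minus MC3T3 as −7.17 ± 0.42 (log2, SE) for miR-31-5p and −6.62 ± 0.55 for miR-31-3p. These were in places 4 and 5 from the lowest of 551 fitted entries. The entries below them were miR-196b-5p at −7.65 and both entries of miR-196a-5p at −7.38 and −7.28. Of all entries, 33.8% were called lower in calvaria (edgeR adjusted p under 0.05), and 32.8% were lower without overlap of the groups, as both arms were. miR-31-5p had at least 10 counts in all 8 libraries, and miR-31-3p entered the fit through MC3T3 only.

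**Figure D2:**
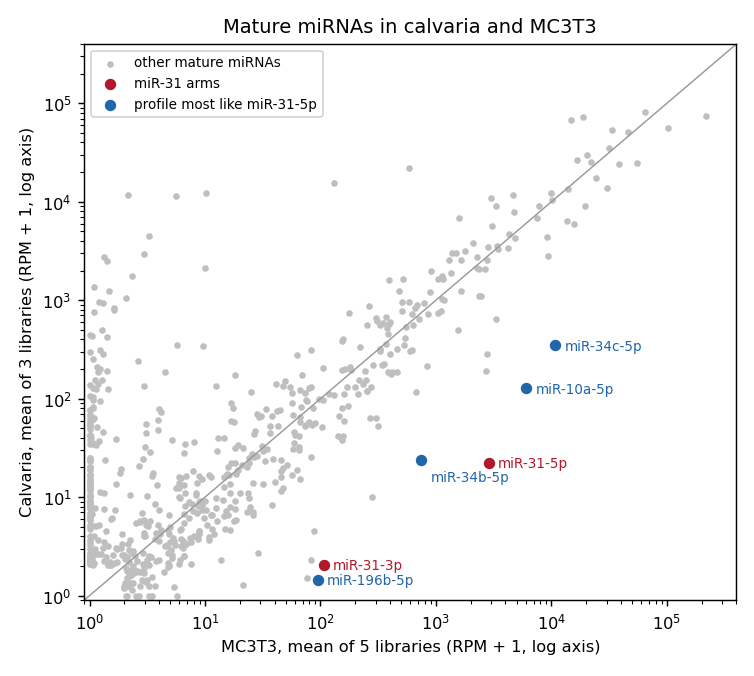
Mean RPM + 1 of each miRNA in calvaria against MC3T3 cells on log axes, 1 point per mature miRNA with a mean of 1 RPM or more in a group; the diagonal marks equal levels. Both miR-31 arms, at 21.2 and 1.06 RPM in calvaria against 2888 and 105.7 RPM in MC3T3, sit far to the MC3T3 side of it.

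Calvaria hold cell types that a cloned line lacks, and miRNAs listed as markers of cell types were read in the same contrast, on counts summed per mature miRNA. Some of them were also abundant in MC3T3, so the sum of a list does not measure the content of a cell type. Of all 471 miRNAs tested that way, 35.5% were called higher in calvaria and 28.7% lower (edgeR adjusted p under 0.05). The endothelial pair miR-126-3p and miR-126-5p summed to 9028 to 20323 RPM in calvaria against 6.2 to 19.0 in MC3T3, and both were called higher. Cartilage markers summed to 61235 to 111611 RPM in calvaria against 18218 to 28775 in MC3T3, and 4 of 4 were called higher (3 of 4 with upper quartile scaling). Blood cell markers summed to 315 to 465 RPM in calvaria against 73.7 to 114 in MC3T3. Of the 8, 6 were called higher and 1 lower, miR-486-5p at −0.80 (edgeR adjusted p = 0.0236), which was not called with DESeq2 size factors or library totals. Among those higher, miR-451a, miR-144-3p, miR-142-3p, miR-142-5p and miR-223-3p had 0 to 0.99 RPM in every MC3T3 library. They entered the fit through calvaria only, as did miR-126-5p, so their calls of higher were close to fixed in advance. The remaining one called higher, miR-150-5p, had 0.95 to 3.22 RPM in MC3T3. Those libraries alone would not have met the filter, so its call was also close to fixed. The sums of these lists were higher in calvaria, opposite to miR-31.

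Epithelial markers summed to 119 to 138 RPM in calvaria against 46.7 to 111 in MC3T3. Of 9, 4 were tested, 2 were called higher and 1 lower, miR-96-5p at −1.12 (edgeR adjusted p = 0.0498), which was not called with DESeq2 size factors, with library totals or without day 0. miR-429-3p was at 0 in all MC3T3 libraries. miR-200b-3p, called higher, had at most 1.82 RPM in MC3T3 and entered the fit through calvaria only. miR-203-3p, also called higher, had 0.64 to 1.02 RPM on days 0 to 17 and 6.93 RPM on day 24. Its MC3T3 libraries alone would not have met the filter, so both calls of higher were close to fixed in advance. Striated muscle markers summed to 283 to 642 RPM in calvaria against 213 to 574 in MC3T3, and 2 of 4 tested were called higher. The other 2, miR-206-3p at −1.33 and miR-499-5p at −2.02, were not called. With upper quartile scaling or without day 0, 1 of the 4 was called lower. Nervous system markers summed to 599 to 682 RPM in calvaria against 326 to 460 in MC3T3, and miR-124-3p was at 0 in all MC3T3 libraries. Of 2 tested, 0 were called (edgeR; 0 also at an unadjusted p under 0.05), and 1 was higher with DESeq2 size factors, with library totals or without day 0. Mesenchymal miRNAs, which mark the lineage of osteoblasts, had overlapping sums of 131924 to 145904 RPM in calvaria and 130003 to 187906 in MC3T3. Their members differed in direction. Of 5 tested, 1 was called higher, miR-199a-3p at 0.51, and 2 lower, miR-143-3p at −1.10 and miR-145a-5p at −1.28. With upper quartile scaling, 0 were higher and 3 lower. The part of cell makeup in the miR-31 difference was not tested, and in bulk samples fewer cells of a type and less RNA per cell cannot be told apart.

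Over the culture course, miR-31-5p was lowest on day 0 and higher on each later day. RPM on day 6 was 3.55 times that on day 0 (exact 95% interval 3.43 to 3.68). From day 6 on, the libraries spanned 2897 to 3827 RPM, with a mean of 3340 ± 421 RPM (SD, n = 4 days). In descending order of RPM the days ran 6, 17, 10, 24 and 0, and day 17 came first with TMM scaling or DESeq2 size factors. The RPM counting intervals of neighbours in this order did not overlap, but with 1 library per day the spread between cultures is unknown.

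miR-31-3p took the same general course. RPM on day 6 was 2.88 times that on day 0 (2.41 to 3.45), and from day 6 on it ran between 94.4 and 138.1. The ratios of day 10 over day 6 at 0.954 (0.827 to 1.10) and day 17 over day 10 at 1.12 (0.985 to 1.29) lay within counting error of 1. Day 24 over day 17 was 0.684 (0.588 to 0.795), a lower level on the later day. For miR-31-5p the same last step was 0.819, also lower on day 24.

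The size of the first step moved with the scaling. miR-21a-5p, the most abundant miRNA on day 0, took 45.5% of day 0 counts and 11.2% to 20.1% on later days, which lowers the RPM of every other miRNA on day 0. Day 6 over day 0 was 2.06 for miR-31-5p after TMM scaling, 1.95 with DESeq2 size factors, 2.42 with miR-21a-5p left out of the total and 2.65 relative to let-7i-5p. For miR-31-3p the same 4 scalings gave 1.67, 1.58, 1.97 and 2.15. Day 6 was above day 0 for both arms under each of these scalings.

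**Figure D3:**
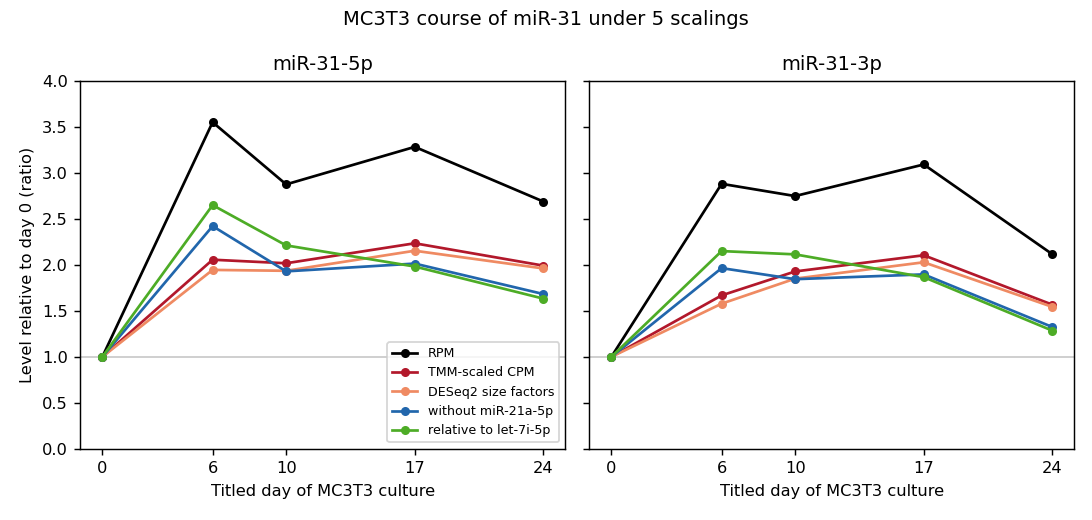
Level of each arm in MC3T3 cells relative to day 0, by day, under 5 scalings; 1 line per scaling and 1 library per point. Every line is above 1 on days 6 to 24, and on day 6 miR-31-5p ranges between 1.95 and 3.55 times day 0.

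Between day 24 and day 0, RPM of miR-31-5p had a ratio of 2.69 (2.59 to 2.79), and the other scalings gave 1.63 to 1.99. For miR-31-3p the ratio was 2.12 (1.74 to 2.57) in RPM and 1.28 to 1.57 in the other scalings. Day 24 over day 6 for miR-31-5p was 0.757 (0.736 to 0.779) in RPM and 1.01 with DESeq2 size factors, so the lower day 24 level depended on the scaling.

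A linear slope over the 5 days was the test that the design allowed. Over 24 days the slope was 0.76 ± 0.48 (log2, SE) for miR-31-5p (edgeR quasi-likelihood test, adjusted p = 0.376, unadjusted p = 0.149). For miR-31-3p it was 0.60 ± 0.50 (edgeR adjusted p = 0.494, unadjusted p = 0.260). Neither of the 2 arms passed, and 0 had an unadjusted p under 0.05. DESeq2's Wald test and limma also called 0. Of 469 entries tested, 1.28% were called higher with day and 1.71% lower, and the median slope of all entries was −0.12.

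The shape of the course decided this test. With log2(day + 1) in place of day, which lets the early step weigh more, miR-31-5p rose by 1.12 ± 0.36 over the 24 days (edgeR adjusted p = 0.0446), where 47 entries, or 10%, were called higher and 56 lower. In no other of the 15 alternatives did miR-31-5p pass. This log scale rests on the titled days. Column names give days 3 lower, for which it is not defined at the first library. miR-31-3p did not pass, and its adjusted p over all 15 alternatives ran from 0.119 to 0.882. Without the day 0 library the slopes were −0.045 for miR-31-5p (edgeR adjusted p = 0.975) and −0.14 for miR-31-3p (edgeR adjusted p = 0.882). The upward slopes therefore rested on 1 library.

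Beside the other entries, the first step of miR-31-5p lay in the upper part of the range. After TMM scaling it was 1.04 on the log2 scale, and 49 of the 468 other entries had a step at least as high. Entries more than 2-fold higher on day 6 made up 11.3% of those tested and included miR-31-5p but not miR-31-3p, which had 0.73. The SD of this step over all entries was 0.94. The later steps of miR-31-5p were −0.03, 0.15 and −0.17, and 95.3%, 70.3% and 56.4% of other entries had larger absolute steps. From day 6 on, miR-31-5p thus had smaller steps than most entries at each step. Many of those entries had far fewer counts and so more counting error, and entries of like abundance were not compared apart.

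The balance of the arms does not depend on library scaling, since both come from the same hairpin in the same library. miR-31-3p made up 5.56% (exact binomial 95% interval 0.680 to 18.7) and 6.67% (1.40 to 18.3) of miR-31 counts in calvaria 1 and 2. In calvaria 3 it was 0 of 19 counts, which allows up to 15.8%. In MC3T3 the share was 3.98% (3.43 to 4.59), 3.25% (2.95 to 3.58), 3.81% (3.44 to 4.2), 3.76% (3.45 to 4.08) and 3.16% (2.79 to 3.56) on days 0, 6, 10, 17 and 24. The MC3T3 shares stayed within a narrow range while the level of miR-31-5p differed by 3.55 times.

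Pooled, the share was 5 of 100 counts in calvaria, or 5% (1.64 to 11.3), and 3.56% (3.40 to 3.73) in MC3T3. A difference between them was not detectable at this depth. Other hairpins were compared after leaving out mature names that occur in several entries. Among the 105 that remained, miR-31 included, with both arms listed and at least 1000 MC3T3 counts, the minor arm had a median share of 1.49% (quartiles 0.254% and 9.47%). Of these, 62 had a smaller share than miR-31.

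**Figure D4:**
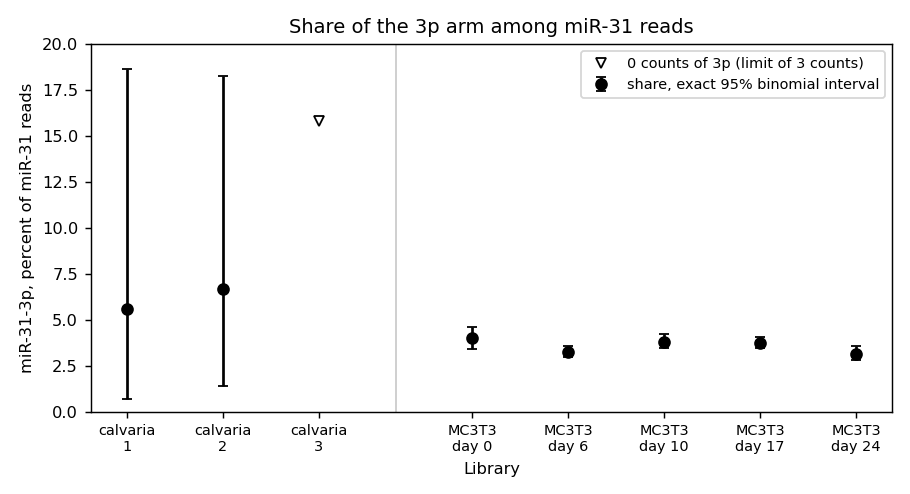
Share of miR-31-3p among all miR-31 counts, in percent, by library, calvaria left of MC3T3 days 0 to 24, with exact 95% binomial intervals and the limit that 0 counts allow for calvaria 3. The 5 MC3T3 libraries lie between 3.16% and 3.98%, and the calvaria intervals are wide and include that range.

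The miRNAs whose profile over all 8 libraries was most like that of miR-31-5p were found among 360 candidates with a mean of at least 10 RPM. Likeness was the root mean square difference in log2(RPM + 1) after each profile was centred on its own mean, so a smaller value is more alike, and the median over candidates was 3.59. miR-196b-5p was closest at 0.539, followed by miR-31-3p at 0.638, then miR-10a-5p (1.01), miR-34c-5p (1.08) and miR-34b-5p (1.13). miR-196b lies in the Hoxa cluster and miR-10a in the Hoxb cluster, gene clusters that set position along the body, and miR-34b and miR-34c share a precursor transcript known as a p53 target.

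These miRNAs are shown for comparison with miR-31-5p, with the seed in capitals (RefSeq, GRCm38.p6).
miR-196b-5p: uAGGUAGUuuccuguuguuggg
miR-10a-5p: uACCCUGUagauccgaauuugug
miR-34b-5p: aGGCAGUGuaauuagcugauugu
Their seeds differ from that of miR-31-5p. miR-196b-5p had 0.850, 0.490 and 0 RPM in calvaria, against 33.9, 148, 108, 79.4 and 99.2 RPM in MC3T3 on days 0 to 24. In RPM it was lowest on day 0 and highest on day 6, as miR-31-5p was. miR-10a-5p had 127 ± 42.0 RPM in calvaria (SD, n = 3) and 6075 ± 585 RPM in MC3T3 (SD, n = 5), where day 0 was its highest library. miR-34b-5p had 34.2, 25.7 and 7.82 RPM in calvaria, against 901, 732, 489, 947 and 660 RPM in MC3T3 on days 0 to 24. It too was lower in every calvaria library than in every MC3T3 library, and its lowest MC3T3 day was day 10.

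**Figure D5:**
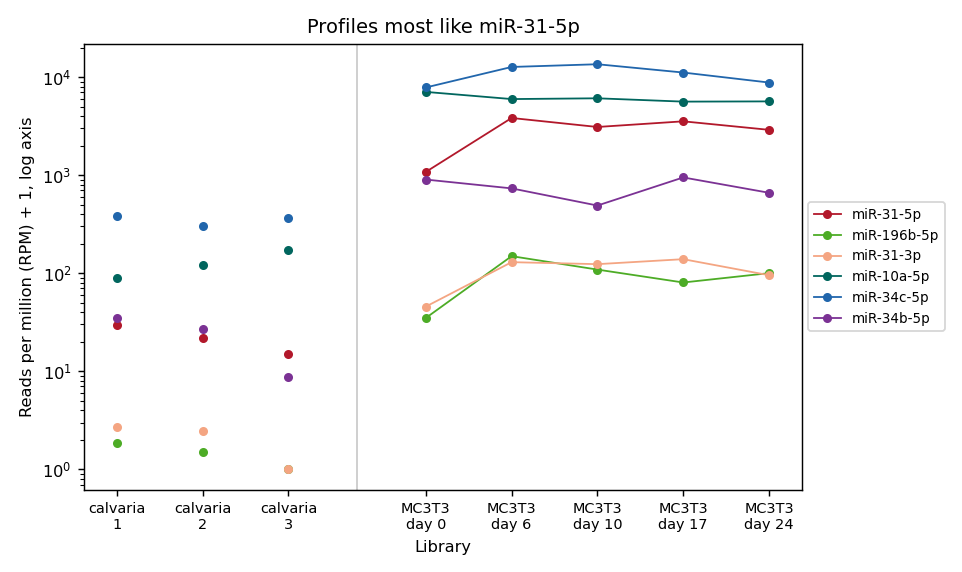
RPM + 1 on a log axis of miR-31-5p and the 5 miRNAs with the most alike profiles in each library, calvaria left of MC3T3 days 0 to 24, 1 colour per miRNA and lines joining the MC3T3 days. All 6 are lower in every calvaria library than in every MC3T3 library, and miR-31-5p, miR-31-3p, miR-196b-5p and miR-34c-5p are lowest in MC3T3 on day 0; the calvaria 3 points of miR-31-3p and miR-196b-5p, both 0 RPM, coincide.

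Over the 5 MC3T3 libraries alone, the closest courses were those of miR-16-5p at 0.0997, miR-194-5p at 0.112 and miR-5109 at 0.12, with miR-31-3p in place 5 at 0.141 and a median of 0.579. These 3 miRNAs did not share the low level of miR-31-5p in calvaria. miR-16-5p had 724 ± 241 RPM in calvaria (SD, n = 3) and 624 ± 242 RPM in MC3T3 (SD, n = 5), and miR-194-5p had 76.5 ± 3.52 and 43.2 ± 16.4 RPM. miR-5109 had 15396 ± 2003 RPM in calvaria and 129 ± 41.7 RPM in MC3T3. Likeness was taken in RPM, where the miR-21a-5p share lowers every other miRNA on day 0, and was not repeated with other scalings.

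The 11 miRNAs reported to act on Runx2, the master factor of the osteoblast lineage, were set beside miR-31-5p. Of 6 tested between calvaria and MC3T3, 3 were higher in calvaria and 1 lower (edgeR on counts summed per mature miRNA, adjusted p under 0.05), with a median of 0.83. The shares over all miRNAs are those given with the cell type markers, and their median was 0.06. Some listed miRNAs had too few counts to be tested, and they were named after their values were seen. miR-135a-5p (mean 13.0 RPM in calvaria, 0 in MC3T3), miR-204-5p (18.4 and 0.88) and miR-338-3p (1.30 and 0.05) had every calvaria library above every MC3T3 library. miR-137-3p and miR-205-5p overlapped between the groups.

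miR-34c-5p had 378, 304 and 361 RPM in calvaria, against 7834, 12682, 13521, 11126 and 8797 RPM in MC3T3 on days 0 to 24, and was lower in calvaria, at −5.14 ± 0.24 (log2 difference, SE; edgeR adjusted p = 1.57e-08). Every calvaria library was below every MC3T3 library, as for miR-31. miR-23a-3p had 5777, 5169 and 9618 RPM in calvaria, against 972, 1508, 1771, 1824 and 1855 RPM in MC3T3, a log2 difference of 1.91 ± 0.24 (edgeR adjusted p = 4.04e-05). It was thus higher in calvaria, the opposite of miR-31.

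miR-133a-3p, a muscle miRNA, was at 37.1 ± 11.6 RPM in calvaria (SD, n = 3) and 4.17 ± 1.81 RPM in MC3T3 (SD, n = 5), a log2 difference of 2.99 ± 0.38 (edgeR adjusted p = 3.90e-05). miR-217-5p was at 48.0 ± 37.3 RPM in calvaria (SD, n = 3) and 0 in all 5 MC3T3 libraries, and passed (edgeR adjusted p = 0.000258). It entered the fit through calvaria only, so its call of higher was close to fixed in advance. With upper quartile scaling, 2 of the 6 were lower in place of 1, where 40.8% of all miRNAs were lower. Without day 0, 2 of the 6 were also lower, where 31.5% of all miRNAs were.

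Over days, 0 of 6 tested passed the slope test (edgeR, summed counts, 2.3% of 391 miRNAs called in either direction), and 0 had an unadjusted p under 0.05. The median slope was 0.70, against −0.12 for all miRNAs, and without day 0 it was −0.16, against −0.17 for all. miR-34c-5p was at −0.30 ± 0.33 (edgeR adjusted p = 0.608), miR-23a-3p at 0.53 ± 0.33 (edgeR adjusted p = 0.356) and miR-218-5p at 1.33 ± 0.83 (edgeR adjusted p = 0.356). miR-218-5p had 458 RPM on day 0 and 2427 to 3094 RPM on later days, and its slope without day 0 was −0.093 ± 0.37.

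The second list held 11 miRNAs reported to restrain osteoblasts by other routes. Of 8 tested, 5 were lower in calvaria and 0 higher (edgeR; 0 higher also at an unadjusted p under 0.05), with a median of −1.19. Of all miRNAs, 28.7% were lower and 35.5% higher, with a median of 0.06. Of the 11, 2 had every calvaria library above every MC3T3 library, but had too few counts to be tested. They were miR-138-5p (mean 5.91 RPM in calvaria, 1.83 in MC3T3) and miR-200a-3p (6.47 and 0.67), both named after their values were seen. miR-34a-5p, whose seed is that of miR-34b-5p, was at 62.9 ± 10.6 RPM in calvaria (SD, n = 3) and 302 ± 76.3 RPM in MC3T3 (SD, n = 5), a log2 difference of −2.44 ± 0.25 (edgeR adjusted p = 6.45e-06). miR-125b-5p was at −1.28 ± 0.21 (edgeR adjusted p = 0.000250) and miR-145a-5p at −1.28 ± 0.21 (edgeR adjusted p = 0.000332). miR-143-3p, which shares a transcript with miR-145a, was at −1.10 ± 0.20 (edgeR adjusted p = 0.000525) and miR-100-5p at −0.86 ± 0.19 (edgeR adjusted p = 0.00216). miR-143-3p and miR-145a-5p were also in the mesenchymal list. These differences were smaller than that of miR-31-5p, and with upper quartile scaling, which moved the median of all miRNAs to −0.37 and called 40.8% lower, 7 of 8 were lower.

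Over days, 0 of these 8 passed (edgeR), and 1 had an unadjusted p under 0.05. It was miR-206-3p, a muscle miRNA named after its values were seen, at −2.56 ± 0.73 (edgeR adjusted p = 0.105). It had 556 RPM on day 0 and 104 to 144 RPM on later days, and its slope without day 0 was −0.37 ± 0.40 (edgeR unadjusted p = 0.351). miR-143-3p was at 0.07 ± 0.28 (edgeR adjusted p = 0.902), miR-100-5p at −0.59 ± 0.27 (edgeR adjusted p = 0.242) and miR-125b-5p at −0.58 ± 0.32 (edgeR adjusted p = 0.317). Without day 0, 1 of the 8 passed, miR-93-5p, which fell by 1.44 ± 0.37 (edgeR adjusted p = 0.00342), where 7.89% of all miRNAs were called lower.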

How the data were processed

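Per the labels' protocols, small RNA libraries were made with the NEBNext kit. The submitters' processing notes name cutadapt 0.9.5, Bowtie 0.12.7 and mm10, with no role or order. No source used here gives the quantifier or the miRBase release. The authors deposited estimated counts for each mature arm of each precursor, and a second table in RPM. Each deposited RPM value equals the count over its library total within 0.0127 RPM. Column names give days 3 lower than the titles, which were followed, and 4 of them, all but day 0, carry "veh", whose meaning is not given. All columns matched a sample.

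Counts were rounded and fitted with edgeR 4.0.16 (R 4.3.3; TMM, quasi-likelihood test, Benjamini-Hochberg adjustment, threshold 0.05). Entries needed 10 counts in 2 MC3T3 libraries (slope on day, 3 residual degrees of freedom) or in 3 of 8 libraries (calvaria against MC3T3). Lists used counts summed per mature miRNA. Alternatives were DESeq2 1.42.0, limma 3.58.1 on log2(RPM + 1) and log2(RPM + 10), other scalings and filters, and leaving out libraries. The fits were tested on simulated data. Sequences came from RefSeq (GRCm38.p6, which has the coordinates of mm10).

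A further list of miRNAs is not reported here. The members and lists were chosen with earlier results of these data known. Named were both arms, in the osteoblast lists every member that passed a test and otherwise the 3 with the highest mean RPM, in the marker lists only some members, and the closest profiles (5 over all libraries, 3 over MC3T3).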

Additional observations from a re-analysis of the deposited data

How the results depend on the processing

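The difference of both arms between calvaria and MC3T3 was negative under all 18 alternatives, at −7.67 to −6.44 for miR-31-5p and −7.10 to −3.31 for miR-31-3p. The smaller sizes came with limma, at −6.44 for miR-31-5p with log2(RPM + 10), and −5.72 and −3.31 for miR-31-3p with log2(RPM + 1) and log2(RPM + 10). Leaving out 1 library gave −7.31 to −6.68 for miR-31-5p and −6.84 to −5.84 for miR-31-3p. Entries called higher or lower in calvaria numbered 180 and 186. They were 85 and 87 with a minimum of 100 counts, and 97 to 202 and 95 to 187 with 1 library left out. DESeq2's Wald test called 109 lower. Scaling by upper quartile gave 143 higher and 251 lower, by DESeq2 size factors 216 and 128, and by library totals 179 and 137.

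The day slopes ran from −0.045 to 1.5 for miR-31-5p and −0.14 to 1.5 for miR-31-3p with 1 library left out, negative without day 0. miR-31-5p passed with log2(day + 1), at 1.12. Its ratio of day 24 over day 6 was 1.01 with DESeq2 size factors; the cause was not tested. Entries called with day numbered 6 higher and 8 lower. These counts were 14 and 20 with no filter, 2 and 2 with a minimum of 100 counts, 20 and 14 with DESeq2's Wald test, 47 and 56 with log2(day + 1), and 0 to 35 and 2 to 40 with 1 library left out. limma gave 2 lower with log2(RPM + 1), and 11 higher and 2 lower with log2(RPM + 10). Library totals and summed counts each gave 5 lower.

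No paired analysis was possible because the labels match no calvaria library to an MC3T3 library. With 1 library per day, culture spread is unknown, and 0 to 42 counts limit both arms in calvaria.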
